A study of Mus musculus with 20 samples.

Results

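Resting CD4 T lymphocytes were studied at the level of single cells in the interscapular brown fat depot (iBAT) of mice. They were chosen by counts of a few genes in the immune (Lin+) libraries. A cell had to carry a summed count of Cd3d, Cd3e and Cd3g, the invariant chains of the T cell receptor complex, of at least 1 and a Cd4 count of at least 0.5. The summed count of Cd8a and Cd8b1 had to stay under 0.5. The summed count of the activation and regulatory genes Ctla4, Icos, Cxcr6, Pdcd1 and Foxp3, and that of the B cell and macrophage genes Cd79a, C1qa and C1qb, each had to stay under 1. This rule, called the resting CD4 gate here, held 610 of the 54289 Lin+ cells kept by the quality limits, which was 1.12%. Over all 20 libraries of the series, 119468 cells were kept. The counts are UMI counts (each UMI marks a captured transcript) from which the authors had subtracted an estimate of free RNA, so a single UMI is a value just under 1 and the Cd3 limit in effect asked for 2 UMIs.

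The gate cells came from 10 Lin+ libraries, each a pool of 3 to 4 mice aged 8 to 14 weeks. Male C57BL/6J mice (C57) were kept at room temperature (RT, 24 °C), were housed singly without nesting at 6 °C for 4 days (COLD), or received the β3 adrenergic agonist CL316,243 by pump at 0.75 nmol per hour for 4 days (CL), with 2 libraries per group. Female mice of the Adrb1 line all carried Adrb1 fl/fl and had all received tamoxifen per the methods. They carried no Cre (Pdgfra-CreER -/-, WT) or the inducible Cre that the Pdgfra promoter drives in stromal cells (Pdgfra-CreER +/-, KO), and 1 library each was made at RT and in COLD. The RT libraries of the Adrb1 line were made with version 3 of the 10x kit and all other libraries with version 2. Per the methods, the treatments of that line were also collected on different days. In that line kit, collection day and temperature therefore cannot be told apart, and between the lines neither can line, sex and collection day. The cells of a pool are not assigned to single mice, so p-values measure the spread between pools. Lin+ cells were taken with beads against CD5, CD11b, B220, Gr-1, 7-4 and Ter-119, and CD5 is the T cell antigen among these.

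Helper T cells recognise peptides on MHC class II through the T cell receptor and the co-receptor CD4. Before they meet antigen they are naive: they circulate between blood and lymph nodes, and the transcription factors LEF1, TCF7 and SATB1, the lymph node receptor CCR7, the survival receptor IL7R and the quiescence factor KLF2 mark this state. After antigen a T cell can lower part of these genes, and memory cells raise S100a4, S100a6, Crip1, Lgals1 and, in part, Ccl5. The genes called naive below are therefore not exclusive to naive cells. In adipose tissue most attention has gone to regulatory T cells, whose genes Foxp3, Ctla4 and Icos the gate limits.

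The gate held 57 and 67 cells in C57 RT replicates 1 and 2, 52 and 57 in C57 COLD, and 11 and 46 in C57 CL. It held 108 in WT RT, 39 in WT COLD, 109 in KO RT and 64 in KO COLD. The median gate cell had from 1154 UMIs in C57 CL replicate 1 to 3465 in KO RT. The summed counts of gate cells ran from 16656 in C57 CL replicate 1 to 404890 in KO RT, so C57 CL replicate 1 carried the least information of the 10 libraries. Replicates of the C57 groups differed by more than the drawing of independent UMIs would give, with a chi-square per degree of freedom over genes of 2.56 for RT, 1.77 for COLD and 3.01 for CL within the gate. UMIs of the same cell are not independent, so these values do not separate a difference of pools from the drawing of few cells. Of 52930 barcodes, 1338 occurred in more than 1 Lin+ library. The barcodes of 26 gate cells were shared with some cell of another library and those of 0 with another gate cell.

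Most members sat close to the limits of the rule. Of the 610 cells, 461 had a single Cd4 UMI (values from 0.957 to 0.9997), 110 lay between 1 and 2, and 39 had 2 or more. The lowest Cd3 sum inside was 1.72, and 85 cells that met the other limits stood outside with a Cd3 sum of at most 0.9992. The activation sum was 0 in 415 members and between 0 and 0.9998 in 195, which carried a single UMI of an activation gene, mostly Icos (129.5 counts in all members, against 28.8 of Ctla4 and 0 of Foxp3), and 90 cells with a sum of 1 to 2 stood just outside. A stricter gate that asked for a Cd3 sum of 2 and a Cd4 count of 1 was therefore run beside it.

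The T cell label was borne out by genes that the rule did not use. With every cell thinned to 1000 UMIs, which left 579 gate cells, Lef1 was detected in 51.3% of them (exact 95% interval 47.1 to 55.4), Tcf7 in 42.3%, Il7r in 40.1% and Trbc2, a constant segment of the β chain, in 64.8%. In 6920 B cells, which should lack these genes, the same shares were 0.665%, 0.159%, 0.636% and 0.708%. The median depth before thinning was 2460 UMIs in the gate and 1710 in B cells, and the intervals cover counting error only. In 11144 macrophages Lef1 was detected in 0.117%, Tcf7 in 0.0897%, Trbc2 in 0.494% and Il7r in 5.71%, up to 16.1% in 1 library. The B cells and macrophages were picked by their own marker genes and for lacking any Cd3 count. Low shares of T cell genes in them are thus partly built in. Without thinning, Trbc1 or Trbc2 was found in 576 of 610 gate cells (94.4%) and Trdc, the constant gene of γδ T cells, in 9 (1.48%). Satb1, Ccr7 and Klf2 do not separate lymphocyte classes here: they were detected in 52.0%, 37.8% and 63.9% of gate cells and in 30.1%, 54.3% and 72.2% of B cells.

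Part of the gate also carried genes of antigen presenting cells. In 70 of 610 cells (11.5%) the summed count of Lyz2, Cd74, Igkc and Fcer1g was 3 or more, from 4.59% in KO RT to 23.1% in WT COLD. Cd74, the invariant chain of MHC class II, reached 1591 to 14007 CPM, the unit in which the summed counts of the gate cells are scaled to the same total in each library, over the 10 libraries, and 0 to 82.3 CPM once those cells, which were picked in part by Cd74, were left out. The summed level of 12 macrophage and monocyte genes ran from 373 to 6455 CPM, and that of 10 dendritic cell genes from 3737 to 31679 CPM. The endothelial genes Cdh5 and Cldn5, the stromal gene Pdgfra, the adipocyte gene Plin1 and the neutrophil gene Ngp were at 0 in all 10 libraries. Other members of those lists were not: S100a8 and S100a9, made by neutrophils, reached 812 and 669 CPM, the stromal genes Gsn and Sparc 105 and 117, and the endothelial gene Pecam1 271. The neutrophil list summed to 25 to 371.7 CPM in the C57 libraries, to 9.31 in WT RT and 564 in WT COLD, and to 4.99 in KO RT and 1603 in KO COLD. The B cell gene Ms4a1 was at 0 in 8 and Ncr1, which marks natural killer cells, also at 0 in 8. The globin gene Hbb-bs reached 26512 CPM in WT COLD. Results were therefore also computed without the 70 cells, and those values are given beside part of the main results. Where no such value is given, the result includes the 70 cells. Below, cells carrying other cell types' genes are those picked by Lyz2, Cd74, Igkc and Fcer1g alone. Cells with globin, neutrophil, stromal or endothelial genes can therefore remain.

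Adrb3, the target of CL316,243, was at 0 in all 10 libraries, and Adrb1 at 0 in 9, with 8.35 CPM from 1 count in C57 COLD replicate 1. The deletion in the KO was directed at Pdgfra-expressing cells, which were checked in the Lin- libraries: Adrb1 was detected in 0 of 950 Pdgfra-positive cells of KO RT, 2 of 1281 of KO COLD, 16 of 2777 of WT RT and 45 of 2665 of WT COLD.

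More gate cells carried naive genes than memory genes in 9 of 10 libraries. After thinning, at least 1 of Lef1, Ccr7 and Satb1 was detected in 71.5% of 579 cells and S100a4 or S100a6 in 26.3%. The naive set holds more genes than the memory set, and the rule limits activation genes, so part of this excess is built in. By cell, 364 carried naive genes only, 102 memory genes only, 50 both and 63 neither. The share with naive genes was 44.6% and 62.7% in C57 RT, 40.5% and 64.2% in C57 COLD, 85.7% and 80% in C57 CL, and 89.8%, 58.8%, 86.2% and 74.1% in WT RT, WT COLD, KO RT and KO COLD. C57 CL replicate 1 had only 7 thinned cells, so its shares here and below are rough. The share with S100a4 or S100a6 was 48.2% and 49.3% in C57 RT, 31.0% and 30.2% in C57 COLD, and 42.9% and 28.9% in C57 CL. In the Adrb1 line it was 10.2% in WT RT, 41.2% in WT COLD, 10.1% in KO RT and 19.0% in KO COLD. Memory genes were thus most frequent in the C57 RT pools and least frequent in the RT pools of the Adrb1 line, which were made with the newer kit. S100a4 and S100a6 are also macrophage genes, and without the cells carrying other cell types' genes their share was 39.1% and 41.1% in C57 RT, 28.6% and 19.0% in C57 COLD, 20% and 25% in C57 CL, 8.82% in WT RT, 24% in WT COLD, 6.73% in KO RT and 13.0% in KO COLD. C57 CL replicate 1 then had 5 cells.

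**Figure D1:**
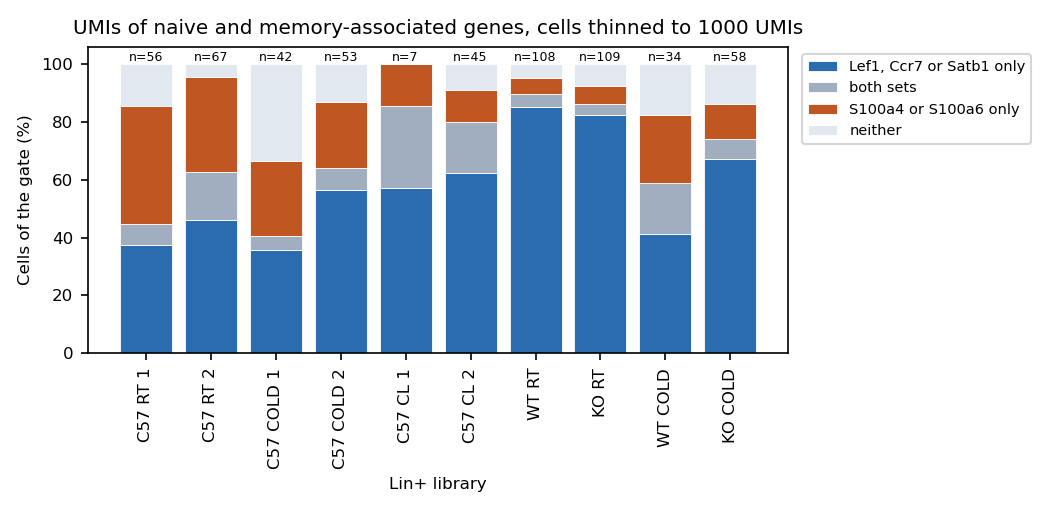
Share of gate cells by detected gene class in each Lin+ library, after thinning to 1000 UMIs; bars stack to 100%, and n is the number of cells. Naive-only cells make up most of the bar in both RT libraries of the Adrb1 line, and cells with S100a4 or S100a6 reach 48.2% and 49.3% in the C57 RT libraries.

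Against the CD8 gate, which follows the same rule with Cd8a or Cd8b1 in place of Cd4 and held 2157 cells, the resting CD4 gate had higher helper genes and lower cytotoxic genes. Cd40lg, the ligand through which helper T cells stimulate B cells and dendritic cells, ran from 52.7 to 200.5 CPM in the 10 libraries (median 105) and from 0 to 28.9 CPM in the CD8 gate (median 6.40). It was higher in 10 of 10 libraries (log2 fold change 3.48 ± 0.27 SE). Trat1, an adaptor of the T cell receptor complex, had medians of 137 and 30.7 CPM (2.04 ± 0.18). The transcription factors Maf (2.06 ± 0.23), Rora (1.02) and Gata3 (0.85), which take part in helper cell differentiation, were higher as well. Ccl5, a chemokine of memory and cytotoxic T cells, ran from 234 to 2078 CPM against 1481 to 4637 (-2.40 ± 0.22), and Nkg7, a cytotoxic granule gene, from 58.1 to 724 against 450 to 1791 CPM (-2.12 ± 0.19). Gzmb (-2.82), Ctsw (-2.24), Gzma (-1.83), Klrd1 (-1.63), Xcl1 (-1.76) and Eomes (-2.92) were lower. In edgeR with the library as a block, 196 of 6320 genes were higher (3.1%) and 303 lower (4.79%) at an adjusted p under 0.05.

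Lef1, Tcf7 and Satb1 were not called between the CD4 and the CD8 gate, and some other naive genes were lower in the CD4 gate. The difference in Lef1 was -0.03 ± 0.11 (log2, SE), in Tcf7 0.00 ± 0.10 and in Satb1 0.09 ± 0.12, none past the threshold. Of 20 naive genes tested, 1 was higher and 6 lower, among them Ccr7 (-0.44), Il7r (-0.43) and Dapl1 (-1.19), with a list median of -0.23 against -0.03 over all genes. Of 24 memory and effector genes, 8 were higher and 4 lower (median 0.39), with S100a4 higher in 10 of 10 libraries (1.13 ± 0.12). Of 17 immediate early genes, 10 were higher (median 0.35), including Nr4a1 (0.61), an early target of T cell receptor signals, Fos (0.45) and Junb (0.29). Of 81 ribosomal protein genes tested, 72 were lower and 1 higher (median -0.41). Cell cycle genes were at similar levels in both gates. The 15 listed genes summed to 1317 to 3904 CPM (median 2600) in the CD4 gate and 1279 to 5793 (median 2043) in the CD8 gate. Over 5 settings the list's median fold change lay between -0.06 and 0.15 on the log2 scale. Cd74, H2-Aa, H2-Ab1 and H2-Eb1 were also higher (1.30 to 1.44), and 6 of the 10 dendritic cell genes were called higher. Without cells of both gates that carried other cell types' genes, 3 of those 10 could be tested and 0 were called by edgeR.

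The activated gate differs in the rule by the 5 activation genes alone, and it held 305 cells. Genes that go with those 5 had to differ, so the following describes what the rule separates. Satb1 ran from 224.7 to 1759 CPM in the resting gate (median 516) and from 0 to 1079 in the activated gate (median 84.5), higher in 10 of 10 libraries (2.12 ± 0.25). Lef1 ran from 231 to 1143 CPM against 31.4 to 658, again in 10 of 10 (1.88 ± 0.19). Of 20 listed naive genes 16 were tested and all 16 were called higher (median 1.25), among them Ly6c1 (2.31), Dapl1 (2.13), Igfbp4 (1.90), Actn1 (1.54), Ccr7 (1.20), Il7r (1.18) and Tcf7 (1.15 ± 0.17). The quiescence factors Klf2 (0.63 ± 0.15) and Tsc22d3 (0.94) and the egress receptor S1pr1 (0.96) were higher.

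Regulatory, memory and proliferation genes stood on the other side of that comparison. Ikzf2, which encodes Helios of regulatory T cells, ran from 0 to 80.3 CPM in the resting gate and from 17.0 to 546 in the activated gate (-2.83 ± 0.38), and Il2ra, the high affinity IL-2 receptor chain, was lower (-3.21). The proliferation genes Mki67 (-2.32 ± 0.35), Top2a (-1.96 ± 0.26), Tpx2 (-2.02), Ube2c (-1.92), Birc5 (-1.86) and Cdk1 (-1.63) were lower, and 10 of 15 cell cycle genes tested were called. Of 23 memory genes 16 were lower (median -0.75), including S100a4 (-0.82), Cxcr3 (-1.36) and Maf (-1.27). Maf and S100a4 thus lay between the CD8 gate and the activated CD4 gate. Ribosomal protein genes were higher in 72 of 81 (median 0.63). In all 263 of 3698 genes were higher (7.11%) and 161 lower (4.35%). With the 8 libraries of kit version 2 alone, 229 of 3166 genes were called, and 15 of 15 naive genes tested stayed among the higher ones.

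**Figure D2:**
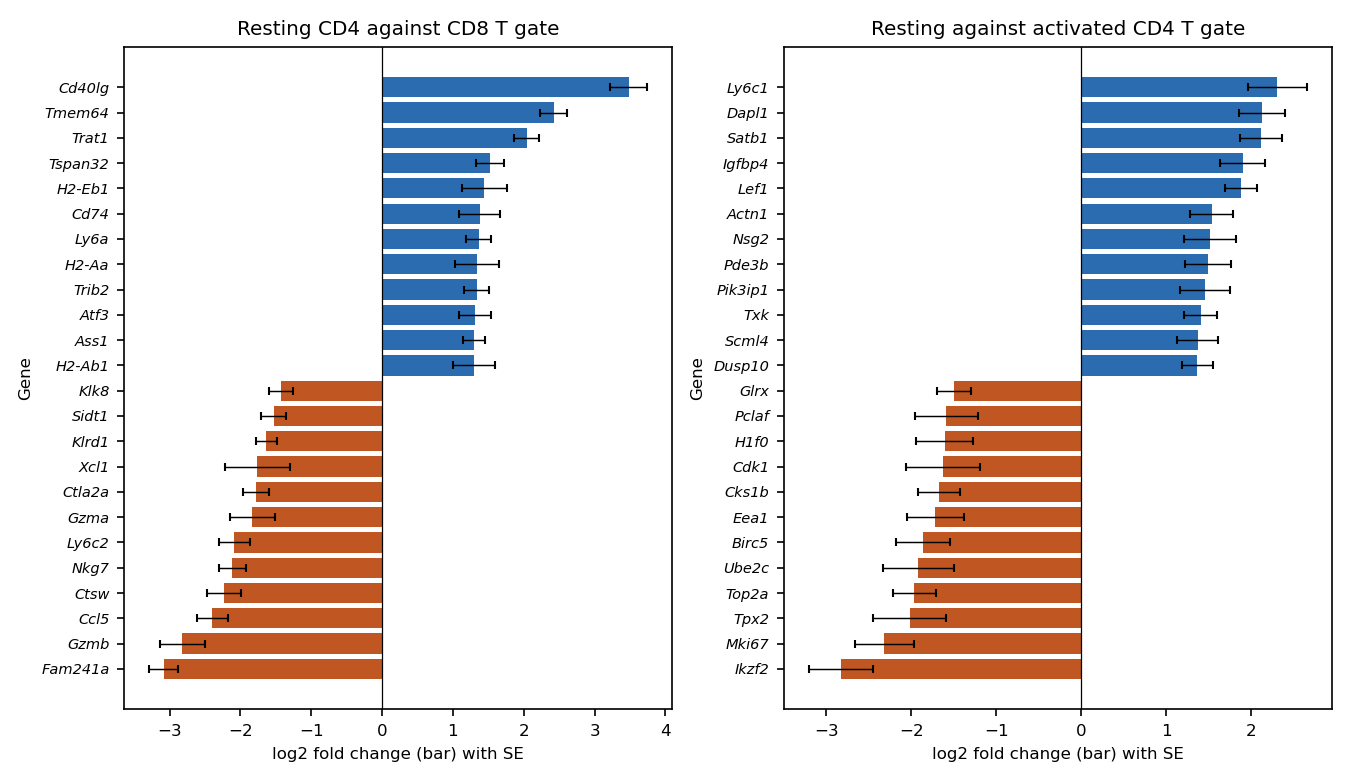
Log2 fold changes (bars) with their standard errors for the 12 genes with the largest differences in each direction by the naming rule, resting CD4 gate against the CD8 gate and against the activated CD4 gate over 10 libraries. Cd40lg leads the genes higher than in CD8 cells at 3.48, and naive genes such as Ly6c1 and Satb1 lead those higher than in activated CD4 cells.

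The resting CD4 gate took up a smaller share of Lin+ cells in the cold and under CL than at RT, but with 2 pools per C57 group this could not reach significance. The share was 1.30% (exact 95% interval 0.99 to 1.69) and 1.41% (1.09 to 1.78) in C57 RT. It was 0.654% (0.488 to 0.856) and 0.891% (0.676 to 1.15) in C57 COLD, and 0.171% (0.0855 to 0.306) and 0.751% (0.550 to 1.00) in C57 CL. RT did not overlap with COLD or CL, while COLD and CL overlapped, with means of 1.36% ± 0.0728 (SD, n = 2) at RT, 0.772% ± 0.168 in COLD and 0.461% ± 0.410 in CL. The two-sided exact permutation p was 0.333 for both differences, which is the smallest that 2 against 2 can give. In the Adrb1 line the share was 3.33% in WT RT and 0.438% in WT COLD, and 4.75% in KO RT and 1.68% in KO COLD. Over 4 COLD and 4 RT libraries the difference was -1.78 percentage points (exact permutation p = 0.0857), and the KO COLD pool lay above both C57 RT pools.

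Within T cells the share was not lower in C57 COLD. Cells with a Cd3 sum of at least 1 made up 12.9% and 19.6% of Lin+ cells in C57 RT, 5.96% and 10.8% in C57 COLD, and 3.33% and 11% in C57 CL. Of those T cells the resting CD4 gate took 10.1% and 7.17% in C57 RT, 10.97% and 8.28% in C57 COLD, and 5.14% and 6.82% in C57 CL. The cold difference on this base was 0.997 percentage points upward, whereas in the Adrb1 line the share was 14.5% in WT RT and 3.85% in WT COLD, and 15.7% in KO RT and 8.70% in KO COLD. There were 0.333 and 0.224 resting CD4 cells per CD8 cell in C57 RT, 0.464 and 0.308 in COLD, and 0.193 and 0.171 in CL. This ratio was 0.454 in WT RT, 0.107 in WT COLD, 0.482 in KO RT and 0.272 in KO COLD. On the log2 scale the ratio differed by 0.47 between C57 COLD and RT (exact permutation p = 0.667) and by -0.49 over 4 against 4 libraries (exact permutation p = 0.429), so both directions occurred.

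**Figure D3:**
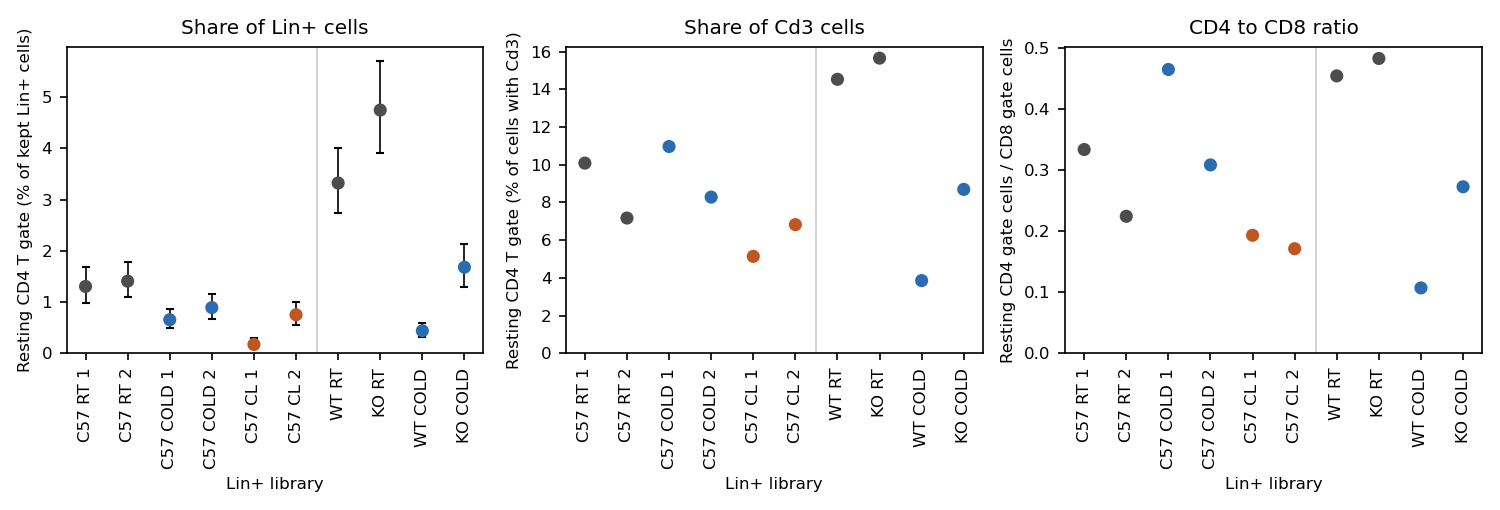
Resting CD4 gate cells per Lin+ library as a share of Lin+ cells (with exact 95% intervals), as a share of cells with Cd3, and as a ratio to CD8 gate cells. C57 COLD and CL lie below C57 RT on the first scale, while on the second the C57 COLD libraries lie at 10.97% and 8.28% against 10.1% and 7.17% at RT.

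Among CD4 T cells thinned to 1000 UMIs, the resting share was 75% and 75.6% in C57 RT (39 of 52 and 31 of 41 cells). It was 57.1% and 68.4% in C57 COLD (20 of 35 and 26 of 38), and 75% and 83.3% in C57 CL (3 of 4 and 20 of 24). It was 64.5% in WT RT (40 of 62), 46.2% in WT COLD (12 of 26), 64.2% in KO RT (52 of 81) and 72.7% in KO COLD (32 of 44). With 4 cells, the share of C57 CL replicate 1 had an exact 95% interval of 19.4 to 99.4%. COLD lay below RT in C57 and WT and above it in KO. Neither the C57 difference (-12.5 percentage points, exact permutation p = 0.333) nor that over 4 against 4 libraries (-8.72, exact permutation p = 0.314) passed, and without thinning the latter turned to 1.21.

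Irf7 rose with cold in resting CD4 T cells of C57 mice, and most other interferon-induced genes had positive fold changes that did not pass the test. These genes are induced when type I or II interferon activates STAT factors, and Irf7 encodes the transcription factor that amplifies the type I response. Irf7 stood at 6.07 and 32.7 CPM in C57 RT (1 and 6.6 counts), 232 and 271 in C57 COLD (27.8 and 40.0 counts), and 39.3 and 70.9 in C57 CL. The groups did not overlap (log2 fold change of COLD against RT 3.27 ± 0.48 SE, adjusted p = 0.00556, edgeR quasi-likelihood test with Benjamini-Hochberg adjustment). Irf7 (GRCm38, chr7:141262706-141266481) was 1 of 2 genes of 2360 tested that passed (0.0847%; 218 at an unadjusted p under 0.05). DESeq2 called 0 of 12081 genes, with 90 at an unadjusted p under 0.05, and gave Irf7 an adjusted p of 0.963. Over its 13 alternatives Irf7 passed in 10, with a fold change between 2.29 and 4.90 on the log2 scale. It missed the threshold under DESeq2, with the stricter gate (adjusted p = 0.381) and without the highest doublet scores (adjusted p = 0.475). Without the cells carrying other cell types' genes its level was 10.7 and 15.5 CPM in RT and 107 and 105 in COLD, too few counts to enter the test there.

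Other interferon genes lay in the same order without passing in the main fit. With the replicate number as a block, 31 of 2360 genes were called for COLD against RT in C57, 14 higher and 17 lower. The values that follow come from the fit without that block. Isg15, a ubiquitin-like modifier, stood at 114.9 and 45.9 CPM in C57 RT and 513 and 277 in C57 COLD (2.07 ± 0.44, adjusted p = 0.0657, edgeR). Ly6a, a surface protein of activated and interferon-exposed T cells, stood at 202 and 119.97 CPM in RT and 996 and 422 in COLD (1.90 ± 0.40, adjusted p = 0.0657, edgeR). Rtp4, Ifit3 and Bst2 did not overlap between groups either: Rtp4 went from 0 and 24.2 CPM to 193 and 151, Ifit3 from 0 and 4.94 to 90.9 and 91.8, and Bst2 from 239.9 and 82.4 to 463 and 474. Of all genes tested, 33.6% were higher in C57 COLD than in RT without overlap. The whole list of 33 interferon genes summed to 2851 and 2334 CPM in RT, 8067 and 5600 in COLD, and 4922 and 2699 in CL. Of the 25 list genes tested 24 had a positive fold change, 15 at an unadjusted p under 0.05 and 1 past the adjusted threshold, with a median of 1.20 against 0.00 over all genes. Over 14 settings the list median stayed between 0.89 and 2.67, and 0 to 8 of its genes were called. Without the cells carrying other cell types' genes 9 of 11 were positive (median 0.89), and Bst2 was called.

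**Figure D4:**
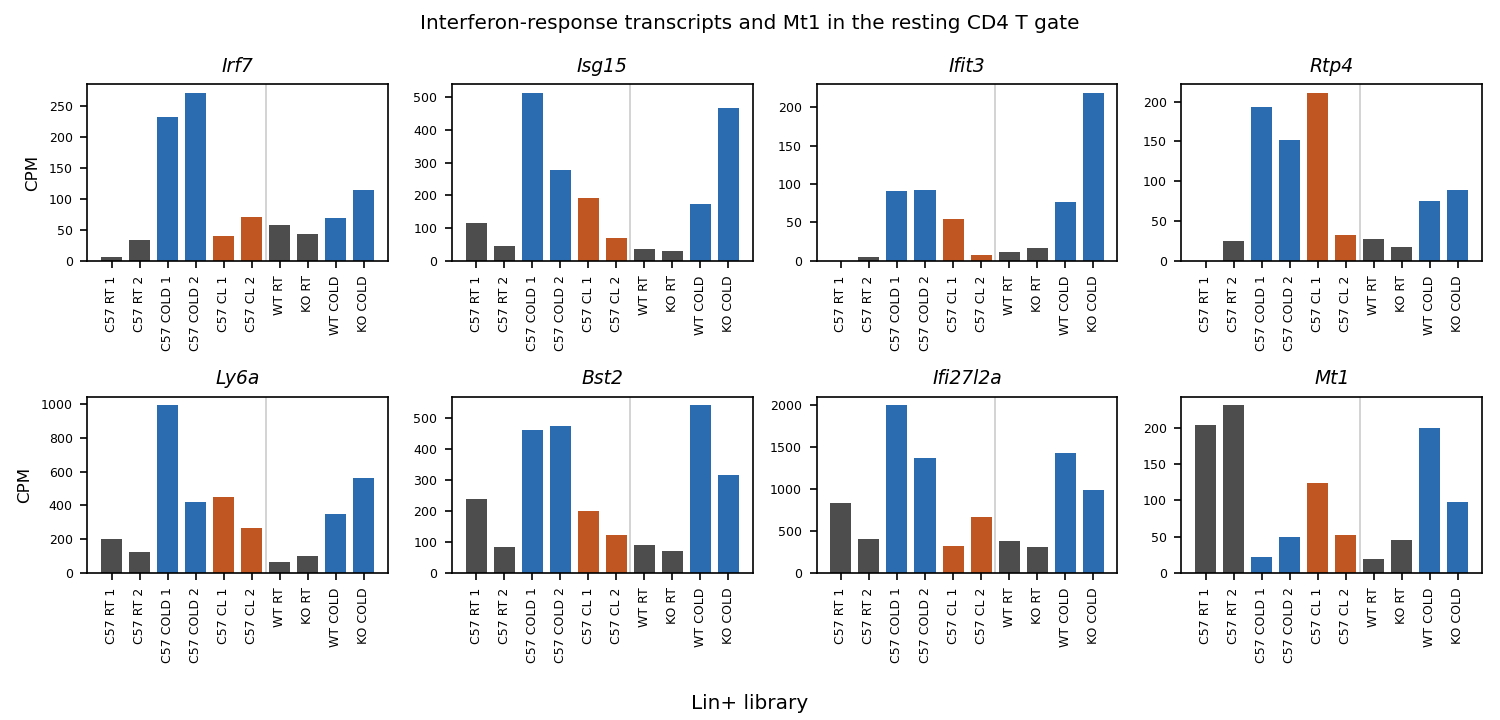
CPM of 7 interferon-induced genes and of Mt1 in the summed resting CD4 gate cells, 1 bar per Lin+ library (grey RT, blue COLD, orange CL; the line parts the C57 from the Adrb1 libraries). The interferon genes are higher in COLD than in RT within C57, WT and KO, with the smallest step for Irf7 in WT, from 57.7 to 69.7 CPM, and Mt1 is lower in C57 COLD and higher in COLD of the Adrb1 line.

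The promoters of 15 of 25 matched interferon list genes held the letters that interferon-activated factors are known to read. The interferon-stimulated response element holds repeats of GAAA, and the motif searched was GAAANNGAAA on both strands within 250 bases before the RefSeq start site (assembly GRCm38.p6), with overlapping matches kept. It was found in 978 of 32851 promoters (2.98%), in 79 of 2107 genes tested in the gate that had a promoter (3.75%), and in those 15 of the 33 list genes, 60.0% of the 25 that matched. The list was made up of genes known as interferon-induced, so a higher share is partly built in. The promoters are also not all separate observations, as the stretches around the match are the same in Ifit3 and Ifit3b. Of the genes with a match, Isg15, Ifit3 and Bst2 are shown because their values are given above. Ifit1 is shown because its stretch holds a pair of separate elements. Ifit3 also had 2 matches in its window, not all of which lie in the stretch shown. Each stretch runs 5′ to 3′ on the gene's strand, with the matches in capitals.
Isg15 (chr4:156200850-156200909, minus strand): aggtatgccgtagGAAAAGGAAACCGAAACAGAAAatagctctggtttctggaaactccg
Ifit3 (chr19:34583382-34583441, plus strand): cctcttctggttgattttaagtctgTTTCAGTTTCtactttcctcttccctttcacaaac
Bst2 (chr8:71537562-71537621, minus strand): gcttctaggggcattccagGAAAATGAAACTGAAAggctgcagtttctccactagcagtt
Ifit1 (chr19:34640779-34640838, plus strand): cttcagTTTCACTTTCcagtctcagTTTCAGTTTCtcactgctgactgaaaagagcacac
The match nearest the start site began 66 bases before it in Isg15, 122 in Ifit3, 124 in Bst2 and 85 in Ifit1. The elements shown for Isg15 and Bst2 read on the gene's own strand, and those shown for Ifit3 and Ifit1 as the complement, TTTCNNTTTC. Irf7 had 0 matches in this window, which says only that these letters are not there.

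Mt1, a metallothionein that binds zinc and responds to glucocorticoids, was the other gene past the threshold in C57. It fell from 205 and 232 CPM in RT to 21.7 and 49.8 in COLD (-2.74 ± 0.42, adjusted p = 0.00556, edgeR). DESeq2 gave it an adjusted p of 0.963. In the Adrb1 line Mt1 stood at 18.4 CPM in WT RT, 200 in WT COLD, 45.0 in KO RT and 97.1 in KO COLD, the opposite order. Without the cells carrying other cell types' genes the C57 values were 27.4 and 18.2 CPM in RT and 0 and 19.8 in COLD, so in C57 the remaining cells carried little Mt1.

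Memory genes were lower in C57 COLD, without a call. S100a4 stood at 867 and 851 CPM in C57 RT and 591 and 370 in C57 COLD (-1.06 ± 0.34, adjusted p = 0.211, edgeR). Crip1, a small zinc-binding protein, stood at 4634 and 4025 CPM in RT and 1496 and 2411 in COLD (-1.37, adjusted p = 0.183, edgeR). Of 22 memory and effector genes tested 20 had a negative fold change, 8 at an unadjusted p under 0.05 and 0 past the adjusted threshold, with a median of -0.72. Without the other-cell cells 16 of 18 were negative. Naive genes did not move together, with 7 of 15 positive and a median of 0.00. Klf2 stood at 415 and 979 CPM in RT, 1453 and 2264 in COLD and 1092 and 1807 in CL (COLD against RT 1.20 ± 0.45, adjusted p = 0.33, edgeR). Of 80 ribosomal protein genes 76 had a negative fold change (median -0.53) and 0 were called.

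The number of C57 calls moved with the libraries in the fit. C57 CL replicate 1, with 11 gate cells, belongs to neither side of COLD against RT, but shares the estimate of the spread and the low-count filter. Without it 83 of 3024 genes were called (2.74%), 16 higher and 67 lower. The 6 interferon genes Irf7, Isg15, Rtp4, Ly6a, Ifi27l2a and Slfn1 were then among the higher, and the memory genes S100a4, S100a6, Crip1 and Ccl5 and 28 ribosomal protein genes among the lower. Without C57 CL replicate 2 the count was 63 of 3264. Leaving out an RT or COLD library leaves 1 pool in that group, so those counts are not read here.

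**Figure D5:**
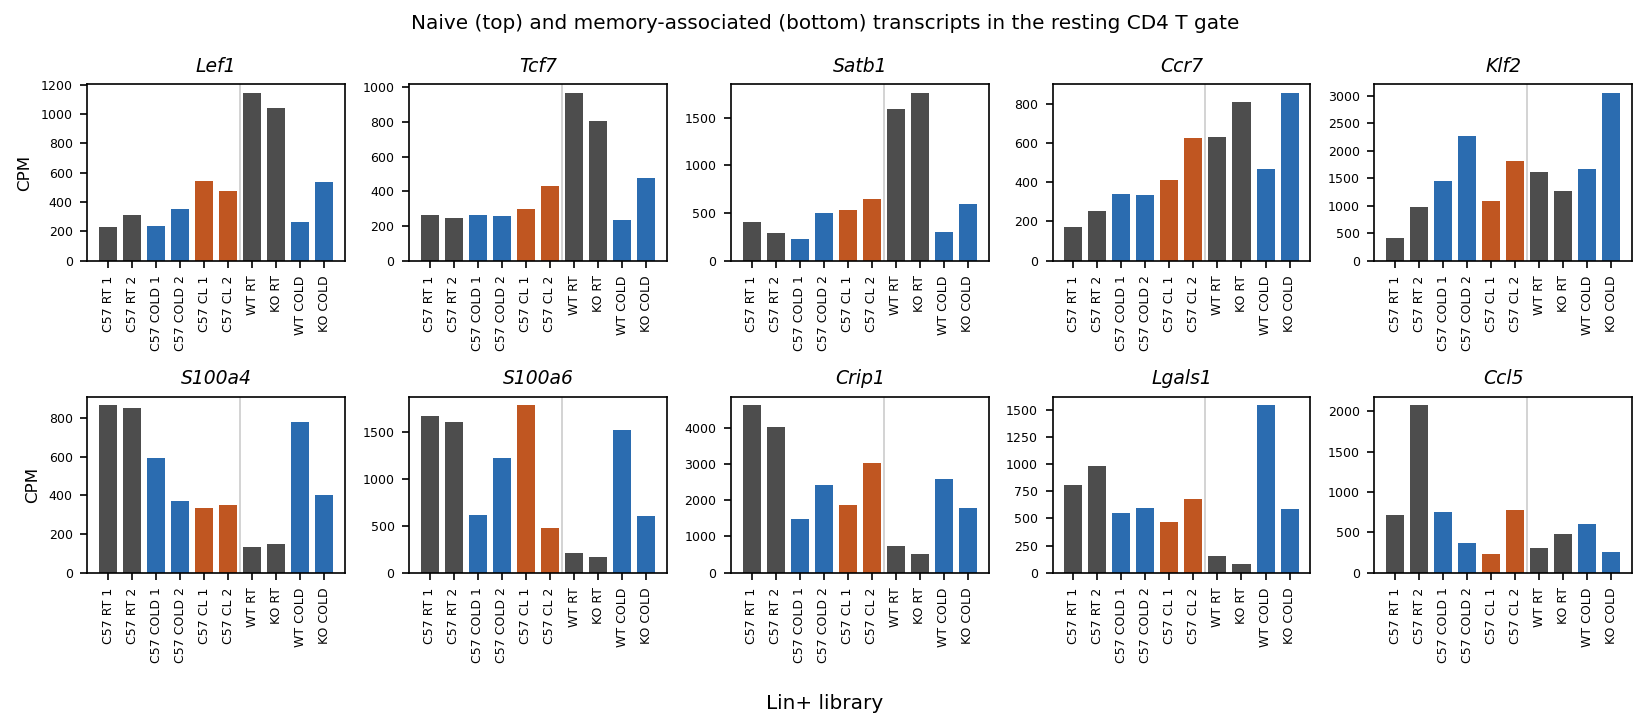
CPM of 5 naive genes (Lef1, Tcf7, Satb1, Ccr7, Klf2) and 5 memory genes (S100a4, S100a6, Crip1, Lgals1, Ccl5) in the summed gate cells of each Lin+ library. Lef1, Tcf7 and Satb1 are highest in the RT libraries of the Adrb1 line, and S100a4 is highest in the C57 RT libraries, at 867 and 851 CPM.

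Under CL no gene was called against RT (0 of 2360, 0%, edgeR, with 126 at an unadjusted p under 0.05). DESeq2 called 0 of 12081, with 51 at an unadjusted p under 0.05. Naive genes nevertheless leaned upward: 14 of 15 had a positive fold change, 6 at an unadjusted p under 0.05, with a median of 0.75 against -0.07 over all genes. Without C57 CL replicate 2, 10 of 16 were positive and the median was 0.15 against -0.41 over all genes. Ccr7 stood at 173 and 254 CPM in C57 RT and 412 and 625.2 in CL (1.33, adjusted p = 0.541, edgeR). Il7r stood at 169.6 and 332 in RT and 595 and 609 in CL, and Igfbp4, a naive T cell gene that binds insulin-like growth factors, at 216 and 206 in RT and 457 and 531 in CL. All 3 were higher in CL without overlap, as were 16.7% of all genes tested. Without the cells carrying other cell types' genes 11 of 12 naive genes were positive (median 0.60). Of 22 memory genes 20 were negative (median -0.93), and Nkg7 stood at 387 and 724 CPM in RT and 292 and 104 in CL. The COLD and CL comparisons share the RT libraries, so they are not independent of each other.

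The comparison of COLD with CL called no gene either (0 of 2360, 0%, edgeR, with 142 at an unadjusted p under 0.05). In it the RT libraries enter only the shared estimate of the spread and the low-count filter. DESeq2 called 0 of 12081, with 50 at an unadjusted p under 0.05. Of 25 interferon genes 22 were higher in COLD (median 0.94), with Isg15 at 513 and 277 CPM in COLD against 192 and 69.7 in CL. Of 15 naive genes 14 were lower in COLD (median -0.76). Ptpn6, which encodes the phosphatase SHP-1 that limits T cell receptor signals, shared the smallest adjusted p with Plac8, with 201 and 194 CPM in COLD and 0 and 15.1 in CL (3.55, adjusted p = 0.0787, edgeR). Its level was 62.9 and 77.1 CPM in RT.

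With WT and KO added and the line as a term, 6 of 2638 genes differed between 4 COLD and 4 RT libraries (0.227%; 579 at an unadjusted p under 0.05). Ifit3 stood at 11.1 CPM in WT RT and 76.5 in WT COLD, and at 17.2 in KO RT and 219 in KO COLD (3.56 ± 0.50 over 8 libraries, adjusted p = 0.0184, edgeR). Isg15 stood at 34.99 and 174 CPM in WT and at 28.6 and 465.6 in KO (2.64 ± 0.43, adjusted p = 0.0344, edgeR). Ly6a stood at 63.7 and 349 CPM in WT and at 96.2 and 561 in KO (2.18 ± 0.35, adjusted p = 0.0341, edgeR). In all 3 genes every COLD library lay above every RT library, as in 7.54% of all genes tested. Irf7 also did not overlap, with 57.7 and 69.7 CPM in WT and 43.6 and 114 in KO, but did not pass (1.88 ± 0.49, adjusted p = 0.0943, edgeR).

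These interferon calls rested on the Adrb1 line libraries as well as on C57. Without WT RT, without KO RT or without KO COLD, 0 genes were called by edgeR (357, 346 and 522 at an unadjusted p under 0.05). With C57 replicate number and Adrb1 line genotype as a block, edgeR also called 0 of 3242 genes (500 at an unadjusted p under 0.05). DESeq2 called 58 of 13568 genes on all 8 libraries (814 at an unadjusted p under 0.05). The list had 21 of 25 genes positive, 3 of them called, with a median of 0.62 against 0.01 over all genes. Without cells carrying other cell types' genes 14 of 16 were positive (median 0.70), and Ly6a and Bst2 were called. In those cells Ly6a stood at 316 and 171 CPM in C57 RT, 1173 and 592 in C57 COLD, 64.6 and 459 in WT RT and COLD, and 103 and 637 in KO RT and COLD. In those cells Isg15 overlapped between the groups, with 45.7 CPM in WT COLD and 192 in C57 RT replicate 1.

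The other genes past the threshold over 8 libraries were Plac8, Itga6 and Smg1. Plac8, a small cysteine-rich protein found in many leukocytes, stood at 179.9 and 136 CPM in C57 RT, 407 and 770 in C57 COLD, 34.2 and 604 in WT and 22.2 and 414 in KO (2.82 ± 0.49, adjusted p = 0.0488, edgeR). Without the other-cell cells its level was 17.8 and 43.0 CPM in C57 RT and 6.59 and 107 in C57 COLD, and the C57 groups overlapped. Itga6, the α6 integrin chain that binds laminin, fell, from 91.7 and 84.2 CPM to 33.1 and 20.3 in C57, from 308 to 26.2 in WT and from 279 to 69.2 in KO (-2.34 ± 0.33, adjusted p = 0.0184, edgeR). Smg1, a kinase of nonsense-mediated RNA decay, fell as well (-2.12 ± 0.31, adjusted p = 0.0184, edgeR). Both had their highest levels in the 2 libraries of kit version 3.

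WT and KO had 1 library at each temperature, so their values stand side by side with no test. Several naive genes were lower in COLD in both: Lef1 went from 1143 to 262 CPM in WT and from 1043 to 534 in KO, Tcf7 from 969 to 235 and from 807 to 479, and Satb1 from 1590 to 302 and from 1759 to 599. Klf2 was higher in COLD in both, at 1608 and 1668 CPM in WT and 1262 and 3055 in KO, and Ccr7 differed in direction, at 629 and 465.5 CPM in WT and 810.4 and 856 in KO. S100a4 was higher in COLD in both, going from 133 to 777 CPM in WT and from 149 to 400 in KO, against a lower level in C57 COLD, and S100a6, Crip1 and Lgals1 were higher as well. Ccl5 was higher in WT COLD, at 301 and 598 CPM, and lower in KO COLD, at 482 and 256. The summed memory list went from 4307 to 15665 CPM in WT, from 4003 to 9228 in KO and from 14306 and 16526 to 9720 and 9852 in C57. The macrophage list moved from 562 to 6455 CPM in WT and from 373 to 2248 in KO. Without the other-cell cells S100a4 stood at 104 and 111 CPM in WT RT and COLD and at 106 and 171 in KO, and Crip1 at 373 and 778 and at 391 and 1258. Kit version 3 and RT coincide in these 4 libraries, and collection day goes with temperature as well. The parts of kit and day in these values cannot be told apart from that of temperature.

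Glycolysis genes leaned upward with cold over 8 libraries, with 10 of 10 tested positive and 0 called (median 0.74 against 0.01 over all genes). Of the 10, 4 had an unadjusted p under 0.05, as did 579 of all 2638 genes tested. The summed list of 14 genes went from 1561 and 2069 CPM in C57 RT to 2784 and 2161 in C57 COLD. It went from 1217 to 2612 in WT and from 1241 to 2656 in KO, where kit and collection day go with temperature. Gapdh overlapped between the C57 groups, with 43.6 and 95.4 counts in RT and 55.9 and 33 in COLD before scaling. Ldha, which makes lactate, stood at 328 and 369.8 CPM in C57 RT, 705 and 503 in C57 COLD, 233 and 488 in WT and 237 and 679.6 in KO, without overlap between RT and COLD, as in 7.54% of all genes tested. Without the cells carrying other cell types' genes Ldha overlapped, with 334 CPM in WT COLD and 429 in C57 RT replicate 2, and 7 of 7 glycolysis genes were positive (median 0.66). The dendritic cell list moved with these genes, from 18413 and 16122 CPM in C57 RT to 19307 and 26020 in COLD and from 3738 to 21286 in WT, and its part in them was not tested. Heat shock genes did the same in 10 of 10 (median 0.44, 0 called). Of the listed helper cytokines and factors Il13, Il17a and Il23r were at 0 in all 10 libraries, but others were not. Ifng had 187.9 counts in all, with 49.3 in C57 RT replicate 2, 43.9 in C57 COLD replicate 1 and 0 in C57 CL replicate 1. It was higher than in the CD8 gate in 7 of 10 libraries and lower than in the activated gate in 8 of 10. The 16 listed genes summed to 152 to 646 CPM (median 287), against medians of 156 in the CD8 and 652 in the activated gate.

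The C57 cold response of resting CD4 T cells was set against that of CD8 T cells in 1 model with a gate by treatment term. Of 3680 genes 6 differed (0.163%; 177 at an unadjusted p under 0.05), and all 6 had the lower response in CD4 cells. They were Gzma (-4.63), Apoe (-4.60), Ccl6 (-4.09), Ctsb (-3.01), Ftl1 (-2.52) and Lgals3 (-2.04). Gzma encodes a granzyme of cytotoxic cells, and macrophages make much Apoe, Ccl6, Ctsb and Lgals3. Apoe went from 40.5 and 116 CPM to 653 and 1083 in the CD8 gate and from 58.5 and 25.4 to 1.29 and 34.6 in the resting CD4 gate. Without cells of both gates that carried other cell types' genes edgeR called 0 of 2232 (103 at an unadjusted p under 0.05). For the interferon list 20 of 30 differences were positive, 0 called, 3 at an unadjusted p under 0.05 and the median was 0.46. Irf7 in the CD8 gate stood at 17.4 and 47.8 CPM in RT and 279 and 113 in COLD, and Ifit1, Ifit3 and Ly6a of the list were called there, among 29 of 5251 genes (0.552%). No interferon gene was shown to respond differently in the resting CD4 gate.

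Ftl1, the ferritin light chain, was uneven between libraries. It stood at 1037 and 767 CPM in C57 RT, 6.14 and 6.01 in C57 COLD, and 0 and 1084 in C57 CL among gate cells without other cell types' genes. The level was 609 and 130 CPM in WT RT and COLD and at 530 and 532 in KO. Ferritin is made by nearly every cell, and the authors had subtracted an estimate of each library's free RNA. The part of that subtraction in Ftl1 and in other genes that macrophages make was not tested.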

How the data were processed

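Per the labels and the methods, cells of iBAT were loaded on 10x kits and the reads were counted with Cell Ranger 3.0.1 on mm10. The authors then corrected the counts with SoupX, which subtracts estimated free RNA. The deposited values are expected counts of 31053 genes, and most entries are not whole. Cells with under 10% mitochondrial counts, under 15000 counts and 300 to 4000 genes were kept. Counts of gate cells were summed per library, rounded and tested with edgeR 4.0.16 (quasi-likelihood, TMM, filterByExpr, adjusted p under 0.05), after a test on simulated data; DESeq2 1.42.0 was the alternative. The 6 C57 libraries were fitted together. CPM was computed from the summed gate counts. Shares were compared with exact permutation tests (scipy 1.17.1) and have exact Clopper-Pearson intervals at 95%. The 14 gate genes were given no test. Doublets were not removed; an alternative left out the top 6% of Scrublet scores (scanpy 1.11.5). Named genes are the 12 largest changes in each direction past the threshold with at least 50 CPM and no overlap (paired: same sign in 9 of 10 libraries), otherwise the 5 smallest p-values, beside members of 27 lists. The values of genes outside this rule (Ldha, Klf2) come from those lists. Members and lists were chosen with earlier results of these data known. The fits on kit version 2 alone, the fits between gates without C57 CL replicate 1, and those over 8 libraries and between gates without cells carrying genes of other cell types were added after the data were seen. Some items are not reported here.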

Additional observations from a re-analysis of the deposited data

Results flagged for a closer look

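In resting CD4 T cells of the 4 COLD libraries Ifit3 stood at 90.9 and 91.8 CPM in C57, 76.5 in WT and 219 in KO. The KO COLD value was set apart from the others by a gap of 0.892 of the whole range. This check was made 26 times, and chance sets apart about 1 in 20. KO COLD also had the highest Ifit3 level among gate cells without other cell types' genes, at 269 CPM.

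The cold response in C57 differed between the resting CD4 and the CD8 gate in 6 genes, by edgeR's gate by treatment term with Benjamini-Hochberg adjustment. The difference of the log2 responses was -4.63 for Gzma, -4.60 for Apoe, -3.01 for Ctsb and -2.52 for Ftl1, each with an adjusted p of 0.0464. It was -4.09 for Ccl6 (adjusted p = 0.000273) and -2.04 for Lgals3 (adjusted p = 0.00926). Macrophage genes moved with these results in the CD8 gate, whose macrophage and monocyte list summed to 1533 and 2556 CPM in C57 RT and 3433 and 5038 in COLD, against 2767 and 2884 and then 2323 and 1889 in the resting CD4 gate. Without the cells of both gates that carried such genes, edgeR called 0 genes (103 at an unadjusted p under 0.05).

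The Lin- libraries, depleted of cells with CD5 by the beads, had 11 resting CD4 gate cells among 65179. The KO RT library had 4 of 2400 (0.167%, exact 95% interval 0.0454 to 0.426). It is listed because the share lay above 0.125%, the limit that a count of 0 in this library allows, which compares a count with a limit and is no test.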

How the results depend on the processing

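With the stricter gate (0 cells in C57 CL replicate 1) the share of Lin+ cells differed by -0.113 percentage points for C57 COLD, -0.202 for CL and -0.653 over 4 against 4 libraries (exact permutation p = 0.0286, the smallest possible). Passing that gate takes more UMIs per cell. The median main gate cell had 3073 and 3465 UMIs in WT RT and KO RT, against 1716 and 1896 in WT COLD and KO COLD. The part of depth and kit in this difference was not tested. With the main gate, the share per Cd3 cell differed by 0.997 for C57 COLD, -2.65 for CL and -3.91 over 4 against 4. The resting share of CD4 cells without thinning differed by -1.73, 8.79 and 1.21. The log2 CD4 to CD8 ratio after thinning differed by 0.0362 for C57 COLD and -1.30 over 4 against 4. Values with and without thinning differ in the effective limits on Cd3 and activation UMIs as well as in depth. The number of genes tested differed between settings and is given with each count. For COLD against RT in C57, DESeq2 called 0 of 12081 genes (90 unadjusted), and edgeR called 41 of 12081 without the low-count filter. Calls were 31 of 2360 with the replicate block, 1 of 704 with the stricter gate and 5 of 1376 without other-cell cells. With all 10 libraries in the fit they were 51 of 4059. For CL against RT 8 of 12081 were called without the filter and 12 of 4059 with all 10 libraries. For COLD against CL 3 of 12081 were called without the filter, 2 of 2360 with the replicate block and 1 of 1704 without top doublet scores. There were 2 of 1376 without other-cell cells and 5 of 4059 with all 10 libraries. Over 8 libraries DESeq2 called 58 of 13568, and edgeR 306 of 13568 without the filter. EdgeR called 0 of 3242 with the replicate block (500 unadjusted) and 10 of 1667 without other-cell cells. With kit version 2 alone 301 of 3886 genes separated the gate from CD8 and 229 of 3166 from activated CD4 cells. The difference of cold responses gave 26 calls of 14418 without the filter and 0 of 2232 by edgeR without other-cell cells. The cause of these changes was not tested. Leaving out 1 library at a time gave share differences of -0.703 to -0.465 (COLD), -1.19 to -0.605 (CL) and -2.25 to -1.10 (4 against 4). The same range was -18.2 to -6.88, -0.305 to 8.03 and -12.6 to -3.73 for the resting share, where CL against RT turned to -0.305 without CL replicate 2. It was 0.17 to 0.76, -0.88 to -0.30 and -0.78 to -0.08 for the log2 ratio. The calls ranged from 17 to 83 (COLD against RT), 0 to 39 (CL against RT, highest without CL replicate 2), 5 to 41 (COLD against CL, highest without CL replicate 1) and 0 to 26 (8 libraries, highest without C57 RT replicate 2); without CL replicate 1, 512 and 402 genes separated the gate from CD8 and activated CD4 cells. Where 1 pool was left in a group, the spread behind those counts came from the other groups. The 512 calls against CD8 were of 6690 genes tested, and the 402 against activated CD4 cells of 3366. The paper merged C57 libraries by replicate experiment, so same-numbered pools may share an experiment. Correlations of same-numbered deviations over 2694 genes were -0.074 for RT and COLD, -0.031 for RT and CL and 0.041 for COLD and CL. With 2 numbers per group they cannot decide on the pairing. Of 185 values of named genes under an alternative, 130 stayed on their side of the threshold, called or not, 24 came to pass it, 31 no longer passed it, and 0 turned direction. Depth limits the gene tests: at 11 to 67 cells per C57 library, 2360 of 31053 genes could be tested in C57.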
